A study of Homo sapiens with 8 samples.

Results

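The mRNA levels of HEK293T cells that lack XRN1 were compared with those of the parental WT cells, and the mRNAs that were higher or lower were sorted by what their products do. The members are the 4 RNA-Seq libraries among the 8 libraries of the series, 2 WT and 2 XRN1-null, chosen by their labels, with 10105 genes counted in each. HEK293T is an established human embryonic kidney line that expresses the large T antigen of SV40. Both genotypes were untreated and were harvested 24 h after plating. The XRN1-null cells came from Cas9 editing of an early coding exon of XRN1 and had no detectable protein by western blot. A single edited line was sequenced and whether it is 1 clone is not stated, so the loss of XRN1 and any other property of that line cannot be told apart.

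XRN1 is the main cytoplasmic nuclease that digests RNA from its 5′ end once the cap is off. Most mRNAs reach it after their poly(A) tail has been shortened by CCR4-NOT and the cap removed by DCP2, and it also takes the downstream pieces left by endonucleases in nonsense-mediated decay. An mRNA level is set by both synthesis and decay, and RNA-Seq measures only the level. By the study's account pieces without a poly(A) tail are not seen in these libraries, and a count per gene does not tell a whole mRNA from a 3′ piece. Levels are in CPM, the counts of a gene per 1000000 counts of its library's scaled total, so they are shares of the counted mRNA and say nothing of the amount of RNA per cell, and in such bulk libraries a change in the mix of cells and a change within cells cannot be told apart. A gene is called higher or lower where edgeR's quasi-likelihood test gave a false discovery rate (FDR, Benjamini-Hochberg) below 0.005, and log2 fold changes are XRN1-null over WT. A rule chose 152 genes with a mean of at least 5 CPM over the 4 libraries. Among them were the 10 largest called rises and falls over all such genes and the largest called rise and fall of each list. The rule required the same direction in all 4 pairs of an XRN1-null and a WT library, so the lack of overlap between the genotypes in these genes was fixed by the choice. Some of these genes are not described, and every other gene named, and every smaller group within a list, was chosen after its values were seen. Where leaving out 1 library ended the call of a named gene, or moved the leading count of a group by over 1.5 times, the FDR or the lowest and highest count is given, with the library left out in brackets (XRN1-null 2 is replicate 2 of that genotype).

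Library totals ranged from 33757487 to 38145433 counts, and the biological coefficient of variation was 6.02%. Higher in XRN1-null cells were 22.9% of all genes (2313) and lower were 23.2% (2344), which is the background for every list below. XRN1 mRNA itself (chr3:142025449-142166904, GRCh37) had 33.5 and 33.0 CPM in the WT libraries and 282 and 253 CPM in the XRN1-null libraries (log2 fold change 3.01 ± 0.08 (SE), FDR = 1.9e-06). Its level over the whole gene was thus higher in both libraries of the edited line, and a count over the whole gene does not check a small coding deletion. By the paper's account the XRN1 transcripts detected in this line kept an intron, and it describes the RNA that builds up as not translatable. Of 9 genes known to be expressed in HEK293 cells 7 were measured, and they had summed levels of 1171 and 1506 CPM in the WT libraries and 1250.3 and 1303 CPM in the XRN1-null libraries, with 1 called higher and 1 lower (with 1 library left out from 0 (XRN1-null 1) to 4 (WT 2) higher and from 0 (XRN1-null 1) to 3 (WT 1) lower). Among 12 markers of liver, blood, endothelial, stromal, epithelial and glial cells COL1A1 alone was measured, at 13.9 and 15.4 CPM in WT against 36.8 and 37.3 CPM in XRN1-null cells.

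A trend with gene length ran across all genes. Each gene of the deposited table carries a width in bases, and across the genes wider ones had higher log2 fold changes (Spearman rho 0.350, a description across genes that share the same libraries). Among genes of the shortest quintile, with a median width of 1328 bases, 43.2% were lower and 8.26% higher. In the longest quintile, with a median of 6993 bases, 8.81% were lower and 42.4% higher. The median log2 fold change went from -0.30 in the shortest quintile through -0.08, -0.01 and 0.08 to 0.26 in the longest. Genes of the shortest quintile took 27.4% (WT replicate 1) and 26.2% (WT replicate 2) of all counts, against 21.6% in each XRN1-null library. For the longest quintile the WT shares were 16.9% and 17.0%, and the XRN1-null shares 21.98% and 21.5%.

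All 4 pairs of an XRN1-null and a WT library showed the trend, with rho from 0.326 to 0.365. Within the genotypes, WT replicate 2 over replicate 1 gave 0.0798 and XRN1-null replicate 2 over replicate 1 gave -0.183, so libraries of 1 genotype also differed with width, by less. The part of such differences between libraries in the trend was not tested. The level of a gene per kilobase was related to the fold change too (rho -0.244), and within quintiles of that level the relation with width kept rho between 0.221 and 0.425. Taking out the genes of cytosolic and mitochondrial ribosomal proteins and of oxidative phosphorylation left rho at 0.331. Without the same genes 39.4% of the shortest quintile were still lower and 9.11% higher. Lists are therefore given without a width term and, where stated, also with the smooth relation of each library to width removed as an offset. With that offset rho was 0.0116, 17.9% of genes were higher (1813) and 22.2% lower (2244), and 1705 of the higher and 1748 of the lower genes were shared with the fit without it.

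The 71 functional lists held 3394 genes, of which 749 were higher and 823 lower, and 97 of these genes stood in more than 1 list. Medians above 0.1 were found in 21 lists and below -0.1 in 26, and with the width offset in 14 and 31. Higher members outnumbered lower ones in 33 lists and the reverse held in 34, and 52 lists kept their majority with the offset. Leaving out 1 library changed the counts over the whole table, from 1632 (XRN1-null 1) to 3410 (WT 2) higher and from 1097 (XRN1-null 2) to 3389 (WT 2) lower genes, and 25 of the 33 and 22 of the 34 lists kept their majority in all 4 such fits.

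Cytosolic ribosomal proteins build the ribosome, and their mRNAs were lower almost as a block. Of 83 genes 78 were lower and 0 higher, with a median log2 fold change of -0.52. All 32 genes of the small subunit and 46 of 51 of the large subunit passed, and with 1 library left out these counts ran from 14 (XRN1-null 2) to 32 (WT 1) and from 14 (XRN1-null 2) to 49 (WT 1). Their summed level was 117405 and 110527 CPM in the WT libraries and 80622 and 79690.1 CPM in the XRN1-null libraries. These are short mRNAs, with a median width of 887 bases, and with the width offset 29 were lower, 1 was higher and the median was -0.17. Leave-one-out counts without the offset ran from 28 (XRN1-null 2) to 81 (WT 1).

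The largest fall in this list was that of RPS27L, a p53-induced relative of RPS27, at 57.4 and 56.7 CPM in the WT libraries and 28.5 and 25.3 CPM in the XRN1-null libraries (log2 fold change -1.09 ± 0.08 (SE), FDR = 2.9e-05). In the same list RPLP1, a protein of the ribosomal stalk, had 2387 and 2187 CPM in the WT libraries and 1387 and 1324 CPM in the XRN1-null libraries (log2 fold change -0.75 ± 0.07 (SE), FDR = 6.4e-05). Near the other end RPL3, a core protein of the large subunit, had 2066 and 2275 CPM in the WT libraries and 2072 and 2091 CPM in the XRN1-null libraries, a log2 fold change of -0.06 that did not pass (FDR = 0.43).

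Most ribosomal protein mRNAs begin with a terminal oligopyrimidine (TOP) tract, a C at the cap followed by a run of C and T that couples their translation to nutrient signalling. Promoter sequences of RefSeq on GRCh38.p14, 250 bases before to 50 bases after each annotated start, were matched to 8319 genes of the table, 422 of them by an older symbol. A C followed by at least 4 C or T, beginning within 2 bases of an annotated start on the transcribed strand, was found for 52 of 67 ribosomal protein genes (77.6%), for 16.1% of the other genes and in 10.5% of all 35116 promoters. The first bases of 4 genes are shown because their mRNAs share the tract but not the change, with 10 bases before the tract and the tract in capitals.
RPLP1 (chr15:69452808-69452837, plus strand): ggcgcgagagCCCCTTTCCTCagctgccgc
RPS12 (chr6:132814559-132814588, plus strand): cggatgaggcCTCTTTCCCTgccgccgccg
EEF1A1 (chr6:73521013-73521042, minus strand): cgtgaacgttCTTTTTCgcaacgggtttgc
EEF2 (chr19:3985444-3985473, minus strand): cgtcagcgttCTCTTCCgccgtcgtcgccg

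RPS12, with -0.79, and EEF1A1, with -0.40, were lower like RPLP1. EEF2, the elongation factor that moves the ribosome along, had 2382 and 2835 CPM in WT against 2789 and 2833 CPM in XRN1-null cells, a log2 fold change of 0.11 (FDR = 0.28). Over the 1326 genes with the tract outside the list the median was -0.06, against -4.2e-05 for the other genes, and 335 were lower and 272 higher. Ribosomal protein genes had negative medians both with the tract (-0.54, with the offset -0.20) and without it in this window (-0.41, with the offset -0.12), and the difference was not tested. With fewer libraries the threshold was missed by EEF1A1 (FDR = 0.023 without XRN1-null replicate 1 and FDR = 0.029 without XRN1-null replicate 2).

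Other parts of protein synthesis differed among themselves. Elongation and release factors had 6 of 13 lower and 0 higher (median -0.25, with the offset -0.34), and with 1 library left out the lower count ran from 1 (XRN1-null 2) to 10 (WT 1). EIF5A, which helps ribosomes through difficult peptide bonds, had 1260.2 and 1301 CPM in the WT libraries and 791 and 797 CPM in the XRN1-null libraries (log2 fold change -0.69 ± 0.06 (SE), FDR = 5.4e-05). Initiation factors went both ways, with 8 higher and 5 lower of 36. EIF4E, the protein that binds the cap, had 162 and 133 CPM in WT against 97.2 and 94.8 CPM in XRN1-null cells (log2 fold change -0.62 ± 0.10 (SE), FDR = 9.7e-04), whereas EIF3A, the large scaffold of the eIF3 complex, had 305 and 359 CPM in WT against 611 and 591 CPM in XRN1-null cells (log2 fold change 0.86 ± 0.09 (SE), FDR = 1.2e-04). Ribosome biogenesis factors had 22 higher and 14 lower of 93, and NIP7, which acts on pre-ribosomes, was the lowest at 90.9 and 88.6 CPM in WT against 37.7 and 39.3 CPM in XRN1-null cells (log2 fold change -1.22 ± 0.06 (SE), FDR = 9.3e-06). In fits of 3 libraries the count of lower initiation factors ran from 1 (XRN1-null 1) to 16 (WT 1) and that of higher ones from 4 (XRN1-null 1) to 15 (WT 2), and the count of higher biogenesis factors ran from 13 (XRN1-null 2) to 47 (WT 2).

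Mitochondrial respiration was the second large group of lower mRNAs. Of 79 nuclear genes for subunits of oxidative phosphorylation 57 were lower and 0 higher, with a median of -0.44 and a summed level of 14667 and 14318 CPM in the WT libraries and 11044 and 11130.1 CPM in the XRN1-null libraries. The lower genes were spread over all 5 complexes, 25 of 38 in complex I, 3 of 4 in complex II, 7 of 9 in complex III, 10 of 11 in complex IV and 12 of 17 in ATP synthase. With the width offset 25 were lower and the median was -0.14, the median width being 975 bases. NDUFAB1, the mitochondrial acyl carrier protein that also sits in complex I, was lowest at 137 and 139 CPM in the WT libraries and 64.2 and 68.4 CPM in the XRN1-null libraries (log2 fold change -1.06 ± 0.07 (SE), FDR = 1.7e-05), and with the offset its log2 fold change was -0.67. Dropping 1 library gave a count from 24 (XRN1-null 1) to 66 (WT 1) over the list, from 8 (XRN1-null 2) to 31 (WT 1) in complex I, from 1 (XRN1-null 1) to 3 (WT 1) in complex II, from 2 (XRN1-null 1) to 7 (WT 1) in complex III, from 6 (XRN1-null 1) to 11 (WT 1) in complex IV and from 6 (XRN1-null 1) to 14 (WT 1) in ATP synthase.

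Mitochondrial ribosomal proteins followed, with 47 of 81 lower and 1 higher (median -0.33), and with the offset 15 lower and 5 higher (median -0.11). MRPS33, of the small subunit, had 78.8 and 70.6 CPM in WT against 42.6 and 46.3 CPM in XRN1-null cells (log2 fold change -0.75 ± 0.08 (SE), FDR = 1.5e-04). The single higher member was PTCD3, a pentatricopeptide protein of the small subunit, at 73.0 and 84.5 CPM in WT against 147 and 144 CPM in XRN1-null cells (log2 fold change 0.88 ± 0.08 (SE), FDR = 8.3e-05). Protein import into mitochondria had 13 lower and 2 higher of 33, led by PAM16 of the import motor at 41.6 and 42.3 CPM in WT against 22.4 and 22.04 CPM in XRN1-null cells (log2 fold change -0.92 ± 0.07 (SE), FDR = 3.7e-05). TCA cycle enzymes were fewer among the called genes, with 2 higher and 1 lower of 19, and DLST, a subunit of the oxoglutarate dehydrogenase complex, had 93.4 and 108 CPM in WT against 203 and 201 CPM in XRN1-null cells (log2 fold change 1.002 ± 0.08 (SE), FDR = 4.9e-05). Glycolysis had 2 higher and 3 lower of 20, with ALDOA (aldolase) at 1021 and 1191 CPM in WT against 638 and 658 CPM in XRN1-null cells (log2 fold change -0.77 ± 0.08 (SE), FDR = 1.6e-04). In fits without 1 library, counts ran for the lower mitochondrial ribosomal proteins from 13 (XRN1-null 1) to 56 (WT 2), for import from 8 (XRN1-null 1) to 19 (WT 2), for higher TCA cycle enzymes from 2 (XRN1-null 1) to 6 (WT 2) and for lower glycolytic enzymes from 1 (XRN1-null 1) to 12 (WT 1).

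Of 29 chaperones of the endoplasmic reticulum (ER) and targets of the unfolded protein response 15 were lower and 0 higher, with a median of -0.35 in both fits. With the offset 14 were lower. The summed level was 8294 and 8629 CPM in the WT libraries and 6335 and 6506 CPM in the XRN1-null libraries. HERPUD1, an ER stress protein of the degradation machinery, had 58.1 and 56.6 CPM in the WT libraries and 29.9 and 29.1 CPM in the XRN1-null libraries (log2 fold change -0.96 ± 0.06 (SE), FDR = 2.3e-05), CRELD2 had 64.4 and 60.3 CPM in WT against 35.9 and 40.9 CPM in XRN1-null cells (log2 fold change -0.70 ± 0.08 (SE), FDR = 2.2e-04) and PDIA4, a protein disulfide isomerase, had 359.6 and 401 CPM in WT against 240.1 and 244 CPM in XRN1-null cells (log2 fold change -0.65 ± 0.07 (SE), FDR = 1.9e-04). The sensors themselves had -0.05 (ERN1), 0.01 (EIF2AK3) and 0.23 (ATF6), none past the threshold. When 1 library was dropped, counts ran for the lower genes from 5 (XRN1-null 1) to 19 (WT 2).

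ATF6 acts on such genes through the ER stress element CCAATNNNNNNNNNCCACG. Both strands of these promoters were searched for it, and 7 of 28 genes in the list held it (25%), against 0.0965% of the other genes and 0.0769% of all promoters. Of these 7 genes 6 were lower, with a median log2 fold change of -0.47. Of the 8 other genes with the element 2 were lower and 1 higher (median -0.07). The element (capitals, either orientation) is shown for 4 listed genes and for 1 gene outside the list that was higher, on the strand of the gene.
CRELD2 (chr22:49918549-49918578, plus strand): cctctCGTGGCGAACTCGGATTGGgccata
PDIA6 (chr2:10812847-10812876, minus strand): ccggaCCAATGAGCCGCAGCCACGgcttgg
CALR (chr19:12938379-12938408, plus strand): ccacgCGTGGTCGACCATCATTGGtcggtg
HSPA5 (chr9:125241385-125241414, minus strand): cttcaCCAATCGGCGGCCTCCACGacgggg
ERO1B (chr1:236282177-236282206, minus strand): gcccgCGTGGTCCCGCCTCATTGGccgccg

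PDIA6 had 544 and 576 CPM in WT against 375 and 389.8 CPM in XRN1-null cells (log2 fold change -0.55 ± 0.06 (SE), FDR = 2.3e-04) and CALR, the chaperone calreticulin, had 1168 and 1270.1 CPM in WT against 824 and 886 CPM in XRN1-null cells (log2 fold change -0.51 ± 0.07 (SE), FDR = 4.9e-04). HSPA5, the chief ER chaperone, had 770.1 and 896 CPM in WT against 632 and 674 CPM in XRN1-null cells, and its log2 fold change of -0.35 missed the threshold (FDR = 0.0073) but passed with the width offset (-0.43, FDR = 0.0023). ERO1B, an oxidase for disulfide bonds, had 48.2 and 42.8 CPM in WT against 71.9 and 68.6 CPM in XRN1-null cells (log2 fold change 0.63 ± 0.08 (SE), FDR = 2.9e-04). The element of CRELD2 lies between CRELD2 and ALG12, which are transcribed in opposite directions, and ALG12 had 55.1 and 53.8 CPM in WT against 49.9 and 55.6 CPM in XRN1-null cells, a log2 fold change of -0.05 (FDR = 0.6). One element thus stood before a lower gene and one that did not pass. Another lies between SERP1 and EIF2A, which are also transcribed in opposite directions, and both were lower. Their log2 fold changes were -0.45 (FDR = 0.0011) and -0.33 (FDR = 0.0021), and they are the 2 lower genes outside the list. Whether these 2 calls held with 1 library left out is not reported here. A match of letters does not show that the site is used. Without 1 library the threshold was missed by PDIA6 (FDR = 0.0083 without XRN1-null replicate 1) and CALR (FDR = 0.017 without XRN1-null replicate 1 and FDR = 0.0057 without XRN1-null replicate 2).

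The secretory route beyond the chaperones was lower more often than higher. Coat proteins and ER translocation had 25 lower and 8 higher of 63, and N-glycosylation with GPI anchor synthesis had 28 lower and 6 higher of 82, with medians of -0.20 and -0.16. With the offset these were -0.15 and -0.25. OSTC, a subunit of the oligosaccharyltransferase, had 185 and 147 CPM in WT against 95.2 and 93.1 CPM in XRN1-null cells (log2 fold change -0.82 ± 0.11 (SE), FDR = 3.7e-04), while COPA, the alpha subunit of the COPI coat, had 166 and 204 CPM in WT against 294 and 294 CPM in XRN1-null cells (log2 fold change 0.67 ± 0.10 (SE), FDR = 6.9e-04). B4GALT5, which adds galactose in the Golgi, had 136 and 117 CPM in WT against 62.8 and 68.0 CPM in XRN1-null cells (log2 fold change -0.95 ± 0.09 (SE), FDR = 8.3e-05). Lysosomal genes had 22 lower and 6 higher of 68, among them IDS (iduronate sulfatase) at 209 and 174 CPM in WT against 99.0 and 90.01 CPM in XRN1-null cells and GUSB (beta-glucuronidase) at 68.4 and 60.1 CPM in WT against 128 and 134 CPM in XRN1-null cells, which moved in opposite directions (-1.02, FDR = 1.0e-04, and 1.03, FDR = 3.8e-05). Counts without 1 library ran for the lower coat and translocation genes from 8 (XRN1-null 1) to 34 (WT 2), for glycosylation from 15 (XRN1-null 1) to 42 (WT 2) and for lysosomal genes from 10 (XRN1-null 2) to 32 (WT 2).

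Genes that p53 induces were lower more often than higher. Of 23 targets 13 were lower and 2 higher, with a median of -0.41, and 15 and 1 with the width offset (median -0.45). CDKN1A, the cell cycle inhibitor p21, had 78.8 and 82.0 CPM in the WT libraries and 36.7 and 31.3 CPM in the XRN1-null libraries (log2 fold change -1.24 ± 0.09 (SE), FDR = 2.4e-05). BBC3, the death protein PUMA, had 11.8 and 12.5 CPM in WT against 5.74 and 4.73 CPM in XRN1-null cells (log2 fold change -1.21 ± 0.13 (SE), FDR = 1.4e-04), and PHLDA3, an inhibitor of AKT, had 31.8 and 38.03 CPM in WT against 17.97 and 16.7 CPM in XRN1-null cells (log2 fold change -1.01 ± 0.11 (SE), FDR = 1.4e-04). MDM2, the ligase that removes p53, was also lower at 189 and 179 CPM in WT against 132 and 132 CPM in XRN1-null cells (log2 fold change -0.48 ± 0.06 (SE), FDR = 4.2e-04). The higher members were DDB2 and POLH, both of which act on ultraviolet damage, DDB2 at 14.7 and 15.9 CPM in WT against 26.6 and 26.5 CPM in XRN1-null cells (log2 fold change 0.80 ± 0.08 (SE), FDR = 1.5e-04) and POLH at 29.1 and 36.9 CPM in WT against 54.7 and 52.3 CPM in XRN1-null cells (log2 fold change 0.70 ± 0.11 (SE), FDR = 9.1e-04). With 1 library left out, counts ran for the lower targets from 8 (XRN1-null 2) to 14 (WT 1). Calls lost with fewer libraries were those of MDM2 (FDR = 0.0097 without XRN1-null replicate 1 and FDR = 0.0097 without XRN1-null replicate 2). With the width offset no call was made for POLH (FDR = 0.023).

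Antioxidant genes and NRF2 targets had 17 of 33 lower and 2 higher (median -0.35, with the offset -0.22 and 12 lower). The lower ones included ferritin, metallothionein, glutathione peroxidase and peroxiredoxin genes. MT2A, a metallothionein, had 28.6 and 27.4 CPM in WT against 13.2 and 11.5 CPM in XRN1-null cells (log2 fold change -1.18 ± 0.09 (SE), FDR = 4.4e-05), FTL, the ferritin light chain, had 700.0 and 657 CPM in WT against 394 and 393 CPM in XRN1-null cells (log2 fold change -0.79 ± 0.06 (SE), FDR = 4.6e-05), and GPX4, which reduces lipid peroxides, had 417 and 376 CPM in WT against 273 and 263 CPM in XRN1-null cells (log2 fold change -0.57 ± 0.07 (SE), FDR = 3.5e-04). NQO1, a classical NRF2 target, had 13.3 and 14.6 CPM in WT against 18.2 and 17.1 CPM in XRN1-null cells, a log2 fold change of 0.34 (FDR = 0.014). Leave-one-out counts ran for the lower genes from 6 (XRN1-null 2) to 19 (WT 1). The threshold was missed with a library less by GPX4 (FDR = 0.0073 without XRN1-null replicate 2).

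In protein turnover, conjugating enzymes of ubiquitin were lower more often than higher and removing enzymes higher more often than lower, and the difference between them was not tested. Of 32 UBE2 enzymes 14 were lower and 1 higher (median -0.29, with the offset -0.31). Of 59 deubiquitinases 28 were higher and 2 lower (median 0.25, with the offset 0.12 and 22 higher). USP24 had 148 and 159.7 CPM in the WT libraries and 349 and 331 CPM in the XRN1-null libraries (log2 fold change 1.14 ± 0.07 (SE), FDR = 1.6e-05), although with the offset its log2 fold change was 0.66. The median widths were 2996 bases for the UBE2 genes and 4949 for the deubiquitinases. Proteasome genes had 14 lower and 2 higher of 48, and the immune subunits split, PSMB10 at 40.5 and 36.8 CPM in WT against 17.7 and 17.6 CPM in XRN1-null cells (log2 fold change -1.13 ± 0.08 (SE), FDR = 2.9e-05) and PSMB9 at 1.21 and 0.731 CPM in WT against 2.25 and 2.41 CPM in XRN1-null cells (log2 fold change 1.25 ± 0.27 (SE), FDR = 0.0046). In fits without 1 library, counts ran for UBE2 enzymes from 3 (XRN1-null 2) to 23 (WT 2) and for the lower proteasome genes from 3 (XRN1-null 2) to 27 (WT 1). The calls lost this way included PSMB9 (FDR = 0.0058 without WT replicate 2 and FDR = 0.011 without XRN1-null replicate 1 and FDR = 0.019 without XRN1-null replicate 2).

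**Figure D1:**
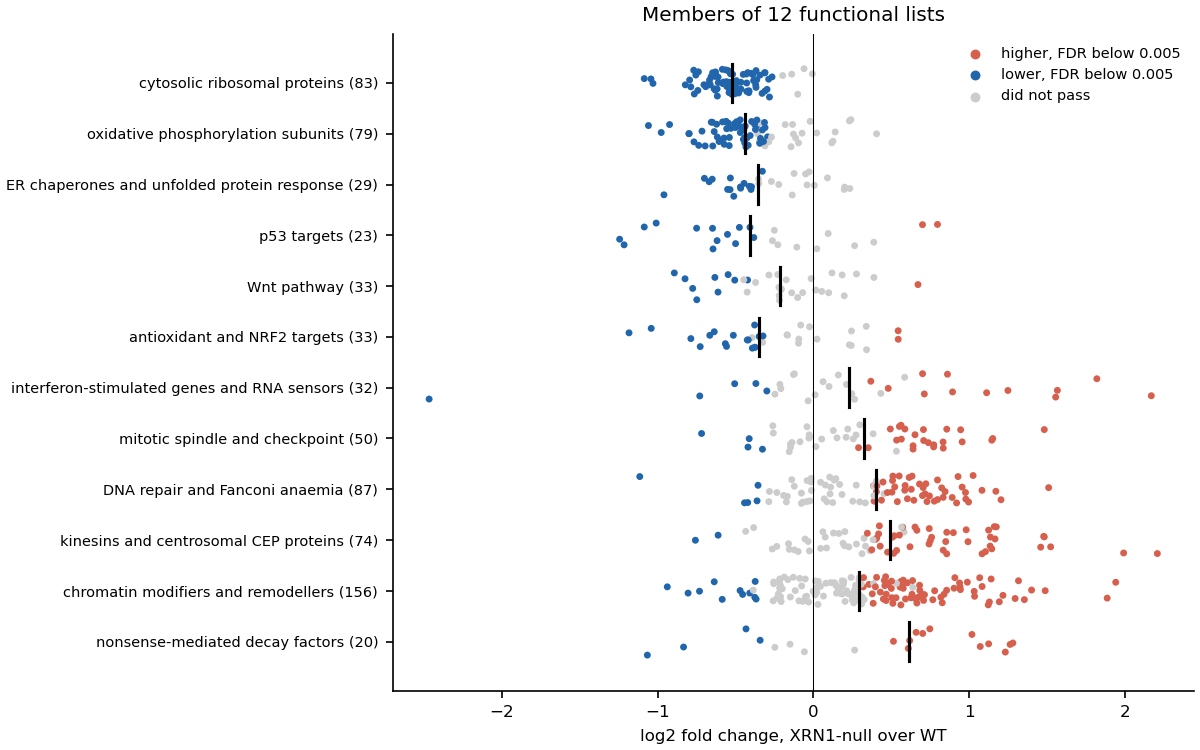
Log2 fold change (XRN1-null over WT) of each member of 12 functional lists, number of genes in brackets, coloured by call, with a black bar at the median. The ribosomal protein genes have their median at -0.52, the interferon list spans -2.47 to 2.17, and the lists of mitosis, repair, kinesins and chromatin lie mostly above 0.

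Without the width offset the highest median among the lists was that of nonsense-mediated decay, the pathway that destroys mRNAs with a premature stop codon. Of 20 factors 12 were higher and 4 lower, with a median of 0.61 and of 0.45 with the width offset. Of the 10 SMG and UPF factors, which recognise and cut the target, 8 were higher and 0 lower, and of 6 proteins of the exon junction complex and its partner RNPS1 4 were lower and 1 higher. SMG9, a partner of the SMG1 kinase, had 25.2 and 34.4 CPM in the WT libraries and 72.4 and 72.2 CPM in the XRN1-null libraries (log2 fold change 1.28 ± 0.13 (SE), FDR = 1.2e-04). UPF1, the helicase of the pathway, had 106 and 142 CPM in WT against 285 and 296 CPM in XRN1-null cells (log2 fold change 1.23 ± 0.13 (SE), FDR = 1.3e-04), and UPF2, which joins it to the junction, had 45.2 and 56.9 CPM in WT against 125 and 119 CPM in XRN1-null cells (log2 fold change 1.26 ± 0.11 (SE), FDR = 5.5e-05). RNPS1 had 416 and 415 CPM in WT against 198 and 198 CPM in XRN1-null cells (log2 fold change -1.07 ± 0.06 (SE), FDR = 1.2e-05) and MAGOHB, a core junction protein, 48.4 and 44.8 CPM in WT against 25.8 and 26.5 CPM in XRN1-null cells (log2 fold change -0.83 ± 0.07 (SE), FDR = 6.8e-05). When 1 library was dropped, counts ran for the lower factors from 2 (XRN1-null 1) to 6 (WT 1) and for the lower junction proteins with RNPS1 from 2 (XRN1-null 1) to 5 (WT 1).

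Other decay machinery was mixed. Among 5′-3′ decay genes 5 were higher and 5 lower of 25. The lower ones were all LSM proteins, which form the ring on the 3′ end of mRNAs bound for decapping, led by LSM5 at 115 and 94.6 CPM in WT against 58.3 and 60.3 CPM in XRN1-null cells (log2 fold change -0.82 ± 0.10 (SE), FDR = 2.3e-04), and the higher ones included XRN1 itself and PATL1, a decapping activator, at 100.8 and 96.7 CPM in WT against 163 and 163 CPM in XRN1-null cells (log2 fold change 0.72 ± 0.06 (SE), FDR = 6.1e-05). CCR4-NOT and the other deadenylases had 9 higher and 4 lower of 27, which turned to 3 and 8 with the width offset. The exosome had 5 higher and 4 lower of 21, with its nuclease DIS3 at 99.5 and 118 CPM in WT against 192 and 197 CPM in XRN1-null cells (log2 fold change 0.83 ± 0.09 (SE), FDR = 1.6e-04) and the ring subunit EXOSC6 at 46.6 and 54.2 CPM in WT against 23.6 and 25.3 CPM in XRN1-null cells (log2 fold change -1.04 ± 0.09 (SE), FDR = 6.9e-05). Counts without 1 library ran for lower 5′-3′ decay genes from 3 (XRN1-null 1) to 10 (WT 2) and for lower deadenylases from 1 (XRN1-null 1) to 10 (WT 1). The higher counts ran for deadenylases from 4 (XRN1-null 1) to 12 (WT 1), for 5′-3′ decay from 2 (XRN1-null 1) to 9 (WT 2) and for the exosome from 3 (XRN1-null 1) to 8 (WT 2).

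Splicing genes were mixed. Of 28 SR proteins and their kinases 13 were higher and 3 lower (median 0.21), and 4 of 6 kinases that phosphorylate SR proteins were higher and 0 lower. The 12 SRSF proteins themselves had 5 higher and 3 lower (median 0.02), and 4 and 4 with the width offset, and with 1 library left out from 2 (XRN1-null 2) to 5 (WT 1) were higher. CLK4 had 13.6 and 11.4 CPM in the WT libraries and 34.7 and 34.9 CPM in the XRN1-null libraries (log2 fold change 1.47 ± 0.10 (SE), FDR = 2.2e-05) and CLK1 31.3 and 23.8 CPM in WT against 54.4 and 58.2 CPM in XRN1-null cells (log2 fold change 1.03 ± 0.12 (SE), FDR = 2.3e-04). The small Sm proteins, which form the ring of the spliceosomal RNPs, were lower, 8 of 9 of them without and 8 with the width offset. SNRPE, one of them, had 305 and 282 CPM in WT against 176 and 177 CPM in XRN1-null cells (log2 fold change -0.73 ± 0.07 (SE), FDR = 7.9e-05). The whole list of spliceosome and hnRNP proteins had 20 higher and 16 lower of 82, and PRPF39 led the higher ones at 49.2 and 40.0 CPM in WT against 144 and 135 CPM in XRN1-null cells (log2 fold change 1.65 ± 0.10 (SE), FDR = 1.7e-05). With 1 library left out, counts ran for the Sm proteins from 5 (XRN1-null 2) to 9 (WT 1), for the lower SR genes from 1 (XRN1-null 1) to 6 (WT 1), for the higher ones from 7 (XRN1-null 2) to 16 (WT 2), for the lower spliceosome genes from 7 (XRN1-null 2) to 29 (WT 1) and for the higher ones from 14 (XRN1-null 2) to 45 (WT 2).

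Host genes of small nucleolar RNAs, long noncoding RNAs whose introns carry those RNAs, were higher more often than lower. Of 22 host genes 11 were higher and 6 lower (median 0.33), and with the width offset the median was 0.58, with 12 higher and 3 lower. SNHG1 had 128 and 102 CPM in the WT libraries and 462 and 442 CPM in the XRN1-null libraries (log2 fold change 1.97 ± 0.11 (SE), FDR = 1.1e-05) and GAS5 151 and 134 CPM in WT against 345 and 362 CPM in XRN1-null cells (log2 fold change 1.31 ± 0.08 (SE), FDR = 1.4e-05). At the low end SNHG19 had 14.03 and 13.1 CPM in WT against 3.91 and 5.78 CPM in XRN1-null cells (log2 fold change -1.48 ± 0.17 (SE), FDR = 2.1e-04). Host genes were thus among both the higher and the lower RNAs. LINC and antisense RNAs had 10 higher and 13 lower of 67, a median of about 0. Leave-one-out counts ran for the lower host genes from 4 (XRN1-null 1) to 10 (WT 2) and for lower LINC and antisense RNAs from 7 (XRN1-null 2) to 15 (WT 2).

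Chromatin regulators were higher more often than lower in XRN1-null cells. Of 156 modifiers and remodellers 69 were higher and 11 lower, with a median of 0.29 and a summed level of 13612 and 14589 CPM in the WT libraries and 18706 and 18489.5 CPM in the XRN1-null libraries. All 8 CHD remodellers had positive log2 fold changes and 6 passed, 3 with the width offset. CHD2 (chr15:93429433-93571226, GRCh37) had 53.7 and 59.0 CPM in the WT libraries and 225 and 206 CPM in the XRN1-null libraries (log2 fold change 1.94 ± 0.08 (SE), FDR = 4.1e-06). Exons of the noncoding RNA LINC01578, also named CHASERR, overlap CHD2 on the same strand, and it was higher too, at 40.3 and 32.2 CPM in WT against 129 and 123 CPM in XRN1-null cells (log2 fold change 1.80 ± 0.11 (SE), FDR = 1.4e-05), so reads of the pair may be shared. BRD7, a bromodomain subunit of a SWI/SNF complex, was the lowest at 173 and 156 CPM in WT against 83.6 and 88.2 CPM in XRN1-null cells (log2 fold change -0.94 ± 0.07 (SE), FDR = 4.4e-05). Demethylases of the KDM family had 7 higher and 0 lower of 14 (higher ones from 4 (XRN1-null 1) to 10 (WT 2) with 1 library left out), while histone deacetylases and sirtuins had 3 and 1 of 13. These are long mRNAs, with a median width of 5579 bases, and with the offset the list had 45 higher, 15 lower and a median of 0.09.

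Mediator, TFIID and RNA polymerase II genes were closer to the background, with 18 higher and 26 lower of 92. Among them SUPT6H, a chaperone of nucleosomes during elongation, had 62.3 and 80.4 CPM in WT against 223 and 219.6 CPM in XRN1-null cells (log2 fold change 1.63 ± 0.11 (SE), FDR = 2.5e-05). Genes of C2H2 zinc-finger proteins named ZNF had 43 higher and 45 lower of 238 and a median of -0.02. Histone genes, which are short, had 7 lower and 0 higher of 23, and 2 and 3 with the offset. The low median of histone genes, -0.29, was -0.03 with the offset. In fits without 1 library, counts ran for lower polymerase genes from 9 (XRN1-null 2) to 34 (WT 2), for lower ZNF genes from 26 (XRN1-null 1) to 63 (WT 2) and for lower histone genes from 0 (XRN1-null 1) to 10 (WT 1).

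Genes of mitosis were higher more often than lower, with or without the width offset. Of 50 spindle and checkpoint genes 24 were higher and 4 lower (median 0.32), and 22 and 3 with the offset (median 0.27). KIF15, a kinesin of the spindle, had 36.0 and 36.97 CPM in the WT libraries and 104 and 99.5 CPM in the XRN1-null libraries (log2 fold change 1.48 ± 0.07 (SE), FDR = 5.1e-06). ESPL1, the protease separase that splits sister chromatids, had 100.9 and 106 CPM in WT against 234.4 and 224 CPM in XRN1-null cells (log2 fold change 1.15 ± 0.07 (SE), FDR = 1.3e-05). MAD2L1, of the spindle checkpoint, was lower at 207 and 184 CPM in WT against 117 and 121 CPM in XRN1-null cells (log2 fold change -0.72 ± 0.08 (SE), FDR = 1.5e-04), and CCNB2, a mitotic cyclin, had 74.4 and 83.6 CPM in WT against 77.4 and 77.9 CPM in XRN1-null cells, a log2 fold change of -0.03 (FDR = 0.78). Members of 1 programme thus stood on both sides. When 1 library was dropped, counts ran for the lower genes from 1 (XRN1-null 1) to 9 (WT 2).

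Many such genes carry the cell cycle homology region, TTTGAA, through which MuvB complexes keep them off until G2. It was searched on both strands from 50 bases before to 50 bases after each start and was found for 26 of 41 listed genes (63.4%), 4.01% of the other genes and 4.62% of all promoters. The 26 genes had a median log2 fold change of 0.57, with 15 higher and 2 lower. The 332 other genes that hold it had a median of 0.13, with 98 higher and 64 lower, and the genes outside the list without it had -0.02. With the width offset the 332 genes had a median of 0.05, with 73 higher and 67 lower. The 26 listed genes then had 0.49, with 14 higher and 2 lower. Listed genes without the motif had a median of 0.15, and 0.13 with the offset. The differences were not tested. The motif (capitals) is shown for the 4 genes just described, of which 2 were higher, 1 was lower and 1 did not pass.
KIF15 (chr3:44761747-44761776, plus strand): ccaagcgccaaaTTCAAAtttgcggccatc
ESPL1 (chr12:53268256-53268285, plus strand): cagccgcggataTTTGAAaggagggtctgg
MAD2L1 (chr4:120066807-120066836, minus strand): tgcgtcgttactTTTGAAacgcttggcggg
CCNB2 (chr15:59105105-59105134, plus strand): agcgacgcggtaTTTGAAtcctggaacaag

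DNA repair genes had 45 higher and 5 lower of 87 (median 0.40, with the offset 0.31 and 35 higher). POLQ, the polymerase of microhomology end joining, had 48.1 and 48.9 CPM in the WT libraries and 141 and 135 CPM in the XRN1-null libraries (log2 fold change 1.51 ± 0.07 (SE), FDR = 4.8e-06), whereas PALB2, which brings BRCA2 to breaks, had 34.4 and 31.1 CPM in WT against 15.8 and 14.4 CPM in XRN1-null cells (log2 fold change -1.11 ± 0.09 (SE), FDR = 5.0e-05). Cohesin and condensin had 13 higher and 1 lower of 25, and STAG1, a cohesin subunit, had 51.8 and 59.5 CPM in WT against 123 and 123 CPM in XRN1-null cells (log2 fold change 1.14 ± 0.08 (SE), FDR = 2.5e-05). The condensin motor SMC4 had 261 and 288 CPM in WT against 575 and 557 CPM in XRN1-null cells (log2 fold change 1.05 ± 0.07 (SE), FDR = 2.3e-05). Replication genes had 18 higher and 12 lower of 65. Medians were 0.08 for 6 subunits of the origin recognition complex (-0.99 to 1.82), -0.32 for 4 GINS subunits and 0.44 for 8 MCM genes. Differences between these complexes were not tested. ORC1, of the origin recognition complex, had 24.7 and 33.9 CPM in the WT libraries and 103 and 104 CPM in the XRN1-null libraries (log2 fold change 1.82 ± 0.13 (SE), FDR = 2.8e-05), the GINS subunit GINS2 had 124 and 120.0 CPM in WT against 59.4 and 62.2 CPM in XRN1-null cells (log2 fold change -1.002 ± 0.06 (SE), FDR = 1.9e-05), and all 8 MCM genes had positive log2 fold changes with 2 past the threshold. Counts without 1 library ran for the higher replication genes from 11 (XRN1-null 2) to 37 (WT 2) and for lower ones from 5 (XRN1-null 1) to 14 (WT 1), and for higher MCM genes from 1 (XRN1-null 2) to 8 (WT 2).

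Regulators of the G1 phase went both ways, with 9 higher and 13 lower of 32. CCND1, cyclin D1, had 53.3 and 60.9 CPM in the WT libraries and 21.96 and 19.3 CPM in the XRN1-null libraries (log2 fold change -1.47 ± 0.10 (SE), FDR = 2.1e-05). CDKN2B, the inhibitor p15, had 25.5 and 25.3 CPM in WT against 52.3 and 51.8 CPM in XRN1-null cells (log2 fold change 1.03 ± 0.07 (SE), FDR = 1.8e-05). Cyclin D1 was lower and 1 of the inhibitors of its kinase higher, while another inhibitor, CDKN1A, was lower as given above. Among the 8 E2F factors 3 were higher and 4 lower, and the repressor E2F4 had 153 and 138 CPM in WT against 65.1 and 65.2 CPM in XRN1-null cells (log2 fold change -1.16 ± 0.07 (SE), FDR = 1.7e-05) while E2F8 had 18.8 and 17.2 CPM in WT against 34.7 and 32.4 CPM in XRN1-null cells (log2 fold change 0.90 ± 0.09 (SE), FDR = 9.1e-05). With 1 library left out, counts ran for lower G1 genes from 7 (XRN1-null 2) to 14 (WT 1).

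Motor and centrosome genes were higher more often than lower. Of 74 kinesin and CEP genes 43 were higher and 2 lower (median 0.49, with the offset 0.29 and 31 higher). CEP295, which builds centrioles into centrosomes, had 43.6 and 39.7 CPM in the WT libraries and 199 and 186 CPM in the XRN1-null libraries (log2 fold change 2.21 ± 0.08 (SE), FDR = 2.9e-06), and CCP110, a cap of the centriole, was lower at 78.7 and 70.7 CPM in WT against 43.6 and 44.7 CPM in XRN1-null cells (log2 fold change -0.76 ± 0.07 (SE), FDR = 1.0e-04). Exons of the snoRNA host TAF1D overlap CEP295 on the other strand, and the library kit does not keep strand. Actin and myosin genes had 16 higher and 17 lower of 79, among them ACTA2, smooth muscle actin, at 12.03 and 15.4 CPM in WT against 3.33 and 3.21 CPM in XRN1-null cells (log2 fold change -2.07 ± 0.16 (SE), FDR = 3.5e-05). Tubulins and their partners had 12 higher and 7 lower of 51. The lowest of them was STMN3, a stathmin that frees tubulin, at 34.7 and 37.8 CPM in WT against 13.3 and 15.4 CPM in XRN1-null cells (log2 fold change -1.33 ± 0.10 (SE), FDR = 3.0e-05). Leave-one-out counts ran for the lower actin genes from 8 (XRN1-null 1) to 32 (WT 1) and for lower tubulin genes from 5 (XRN1-null 1) to 14 (WT 1) and higher ones from 8 (XRN1-null 1) to 22 (WT 2).

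Developmental transcription factors had 36 higher and 14 lower of 99, and the HOX genes, which set position along the body axis, were 17 of the higher ones. Of 28 HOX genes 17 were higher and 0 lower, with a median of 0.54 and of 0.65 with the width offset, and with it 18 were higher. Their summed level was 1616 and 1578 CPM in the WT libraries and 2778 and 2779.6 CPM in the XRN1-null libraries. By cluster 9 of 9 HOXA, 4 of 8 HOXB, 1 of 7 HOXC and 3 of 4 HOXD genes were higher, and with 1 library left out the HOXB count ran from 2 (XRN1-null 1) to 5 (WT 1) and the HOXC count from 1 (XRN1-null 1) to 3 (WT 1). HOXA5 (chr7:27180671-27183300, GRCh37) had 100.3 and 88.8 CPM in the WT libraries and 353 and 351 CPM in the XRN1-null libraries (log2 fold change 1.90 ± 0.08 (SE), FDR = 4.1e-06), HOXD9 had 8.44 and 6.39 CPM in WT against 27.3 and 27.97 CPM in XRN1-null cells (log2 fold change 1.89 ± 0.13 (SE), FDR = 2.2e-05) and HOXB5 had 29.7 and 30.9 CPM in WT against 92.7 and 92.7 CPM in XRN1-null cells (log2 fold change 1.61 ± 0.06 (SE), FDR = 3.7e-06).

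SNAI2, a repressor of epithelial genes, was the lowest member of the list of developmental factors and had 35.7 and 34.7 CPM in the WT libraries and 1.90 and 2.21 CPM in the XRN1-null libraries (log2 fold change -4.09 ± 0.11 (SE), FDR = 1.9e-06). SOX, FOX and GATA factors had 1, 4 and 0 members higher and 1, 3 and 1 lower, of 6, 18 and 4. In fits without 1 library, counts ran for the lower developmental factors from 9 (XRN1-null 2) to 17 (WT 2), for higher SOX factors from 0 (XRN1-null 1) to 3 (WT 2), for higher FOX factors from 1 (XRN1-null 2) to 4 (WT 1) and for lower GATA factors from 0 (XRN1-null 1) to 2 (WT 1).

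Lower members made up, without the width offset, 27.3% of Wnt genes and 28.6% of Notch genes, near the 23.2% of all genes. With the offset 16 of 33 Wnt genes and 11 of 28 Notch genes were lower, against 22.2% of all genes. Of 33 Wnt genes 9 were lower and 1 higher (median -0.22), and with the width offset 16 were lower (median -0.33). FZD7, a Wnt receptor, had 37.6 and 37.6 CPM in the WT libraries and 19.5 and 20.9 CPM in the XRN1-null libraries (log2 fold change -0.89 ± 0.08 (SE), FDR = 5.8e-05), its co-receptor LRP5 had 112 and 111 CPM in WT against 70.7 and 73.3 CPM in XRN1-null cells (log2 fold change -0.63 ± 0.06 (SE), FDR = 1.1e-04), and all 7 measured Frizzled receptors had negative log2 fold changes, 1 of them past the threshold. DVL2, which relays the signal, was the single higher gene at 56.9 and 71.4 CPM in WT against 99.3 and 105 CPM in XRN1-null cells (log2 fold change 0.67 ± 0.11 (SE), FDR = 9.8e-04). Notch genes had 8 lower and 4 higher of 28 (median -0.03, with the offset -0.17), the lower ones including the receptor NOTCH1 at 43.1 and 42.8 CPM in WT against 23.4 and 23.3 CPM in XRN1-null cells (log2 fold change -0.88 ± 0.07 (SE), FDR = 4.0e-05) and the target NRARP at 62.3 and 59.3 CPM in WT against 22.8 and 22.97 CPM in XRN1-null cells (log2 fold change -1.41 ± 0.07 (SE), FDR = 6.8e-06). NOTCH2NL was higher at 15.7 and 14.2 CPM in WT against 44.4 and 40.2 CPM in XRN1-null cells, and is a near copy of part of NOTCH2 whose reads cannot be placed with certainty. Of 7 Notch receptors and ligands 4 were lower and 0 higher. When 1 library was dropped, counts ran for lower Wnt genes from 5 (XRN1-null 1) to 17 (WT 2), for lower Notch genes from 4 (XRN1-null 1) to 11 (WT 2), for higher ones from 1 (XRN1-null 1) to 7 (WT 1), for lower Frizzled genes from 1 (WT 1) to 4 (WT 2) and for lower Notch receptors and ligands from 2 (XRN1-null 1) to 4 (WT 1).

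Hippo genes had 10 higher and 1 lower of 28 without the width term and 3 and 3 with it, and their median went from 0.28 to 0.0019. AJUBA, a scaffold that restrains the pathway, kept a positive value (0.79) with the offset and had 14.1 and 14.6 CPM in WT against 26.3 and 29.4 CPM in XRN1-null cells (log2 fold change 0.96 ± 0.09 (SE), FDR = 9.4e-05). The reading of this list therefore depended on the treatment of width. TGF-beta and BMP genes had 9 lower and 4 higher of 40, and receptor tyrosine kinases 8 and 6 of 36. With the offset these counts were 13 and 2, and 14 and 1. EPHB2, a receptor for ephrins, had 37.5 and 40.5 CPM in WT against 14.9 and 15.1 CPM in XRN1-null cells (log2 fold change -1.38 ± 0.08 (SE), FDR = 1.4e-05) and its list of axon guidance genes 9 lower and 6 higher of 38. With the offset 12 of these guidance genes were lower and 5 higher. At the cell surface PCDH10, a protocadherin, had 287 and 280.5 CPM in the WT libraries and 864 and 858 CPM in the XRN1-null libraries (log2 fold change 1.60 ± 0.06 (SE), FDR = 3.1e-06). Cadherins as a list had 6 higher and 3 lower of 21, and 4 and 5 with the offset. Counts without 1 library ran for higher Hippo genes from 5 (XRN1-null 1) to 16 (WT 1), for lower TGF-beta genes from 5 (XRN1-null 1) to 16 (WT 2), for lower kinase genes from 5 (XRN1-null 1) to 13 (WT 1), for higher kinase genes from 2 (XRN1-null 1) to 10 (WT 1) and for higher cadherins from 4 (XRN1-null 2) to 12 (WT 2).

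Interferon signalling was split. Of 32 genes 12 were higher and 5 lower (median 0.23, with the offset 0.29). IRF9, the DNA-binding part of the factor that type I interferon activates, had 4.04 and 3.44 CPM in the WT libraries and 16.3 and 17.4 CPM in the XRN1-null libraries (log2 fold change 2.17 ± 0.12 (SE), FDR = 1.2e-05). Its partner STAT2 had 18.01 and 22.1 CPM in WT against 59.8 and 57.7 CPM in XRN1-null cells (log2 fold change 1.55 ± 0.10 (SE), FDR = 1.8e-05), and the sensor of double-stranded RNA IFIH1 had 2.37 and 2.44 CPM in WT against 8.43 and 8.53 CPM in XRN1-null cells (log2 fold change 1.82 ± 0.13 (SE), FDR = 3.1e-05). BST2, the tether of budding viruses, was lower at 16.1 and 18.2 CPM in WT against 3.04 and 3.16 CPM in XRN1-null cells (log2 fold change -2.47 ± 0.12 (SE), FDR = 7.9e-06). IFNAR2, a chain of the type I interferon receptor, was lower at 43.5 and 40.4 CPM in WT against 31.8 and 33.2 CPM in XRN1-null cells (log2 fold change -0.37 ± 0.07 (SE), FDR = 0.0029). IRF9, STAT2 and IFIH1 were thus higher while BST2 and a receptor chain were lower. With 1 library left out, counts ran for the higher genes from 7 (XRN1-null 1) to 15 (WT 1), and for the lower ones from 1 (XRN1-null 2) to 6 (WT 2). In such fits no call was made for IFNAR2 (FDR = 0.037 without XRN1-null replicate 1 and FDR = 0.018 without XRN1-null replicate 2).

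Metabolic lists outside the mitochondrial groups were mixed. Cholesterol genes had 5 higher and 5 lower of 24, with INSIG1, the sterol sensor partner, at 225 and 197 CPM in WT against 136 and 131 CPM in XRN1-null cells (log2 fold change -0.66 ± 0.08 (SE), FDR = 2.7e-04). Fatty acid genes had 11 lower and 2 higher of 26, yet ACACA, which makes malonyl-CoA in the committed step, had 90.1 and 92.3 CPM in WT against 223 and 209 CPM in XRN1-null cells (log2 fold change 1.24 ± 0.07 (SE), FDR = 1.0e-05). The ATF4 targets of amino acid synthesis had 6 higher and 8 lower of 32. SLC7A5, the leucine transporter, was lower at 605 and 612 CPM in the WT libraries and 248 and 248 CPM in the XRN1-null libraries (log2 fold change -1.29 ± 0.06 (SE), FDR = 6.1e-06). Peroxisomal genes had 8 higher and 2 lower of 27. Autophagy had 12 higher and 2 lower of 40, led by EPG5, which brings autophagosomes to lysosomes, at 15.9 and 17.7 CPM in WT against 66.4 and 57.3 CPM in XRN1-null cells (log2 fold change 1.88 ± 0.10 (SE), FDR = 9.4e-06). Solute carriers had 40 lower and 28 higher of 171, and ion channels 12 higher and 11 lower of 42. With the width offset 51 solute carriers were lower and 16 higher, and 8 ion channels were higher and 14 lower. The channel TRPV1, a receptor for heat and capsaicin, had 13.5 and 11.1 CPM in WT against 74.6 and 73.1 CPM in XRN1-null cells (log2 fold change 2.59 ± 0.10 (SE), FDR = 3.1e-06). Exons of SHPK overlap TRPV1 on the same strand, and SHPK had 32.6 and 33.2 CPM in WT against 46.3 and 43.6 CPM in XRN1-null cells, so reads of the pair may be shared. Leave-one-out counts ran for lower fatty acid genes from 2 (XRN1-null 2) to 14 (WT 2), for lower cholesterol genes from 1 (XRN1-null 1) to 11 (WT 1), for lower ATF4 targets from 2 (XRN1-null 2) to 13 (WT 1), for higher peroxisomal genes from 5 (XRN1-null 1) to 11 (WT 2), for lower solute carriers from 17 (XRN1-null 2) to 69 (WT 2) and for higher ones from 18 (XRN1-null 1) to 43 (WT 1), for lower ion channels from 4 (XRN1-null 2) to 17 (WT 2), for higher cholesterol genes from 2 (XRN1-null 1) to 7 (WT 1) and for higher autophagy genes from 10 (XRN1-null 2) to 22 (WT 1).

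**Figure D2:**
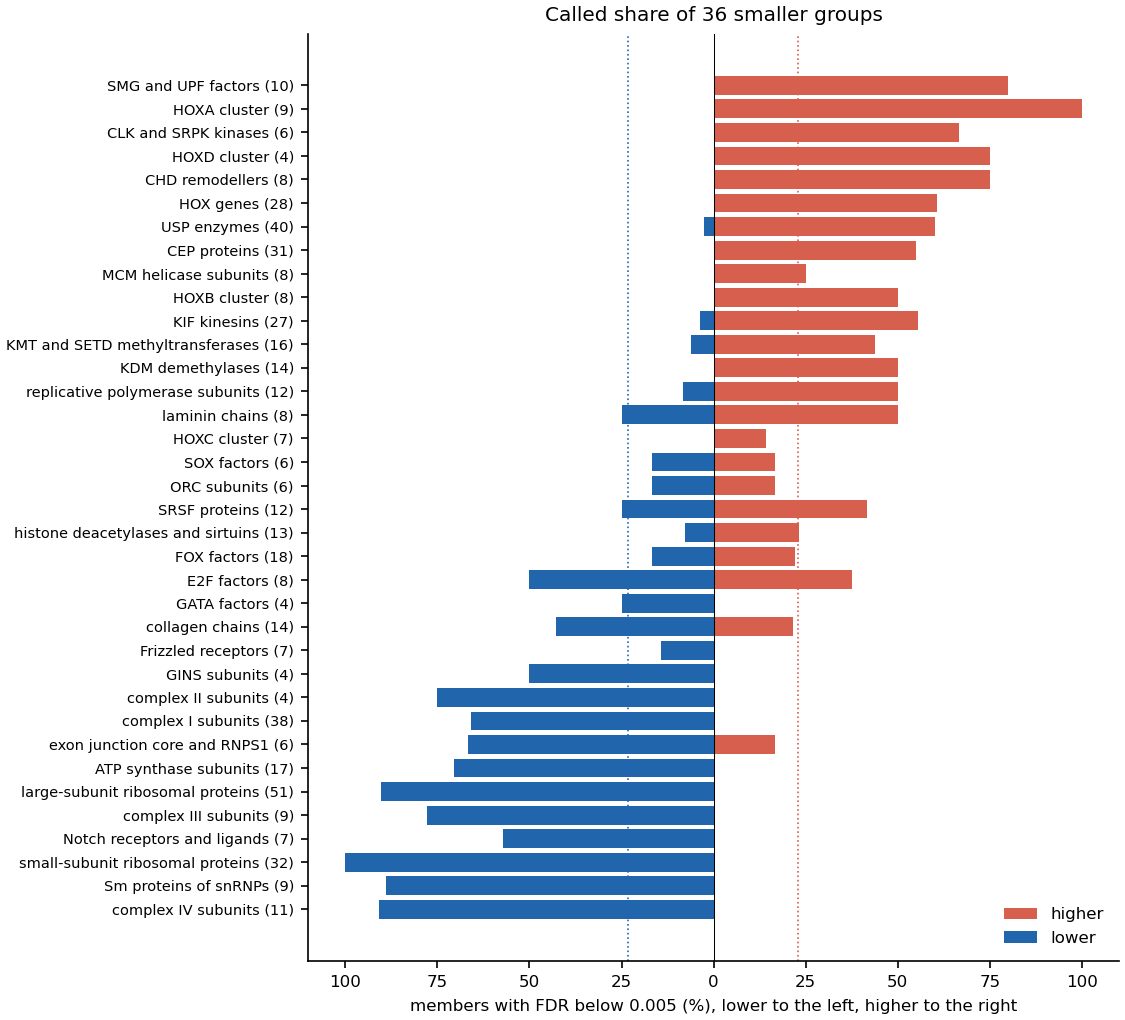
Percent of members called higher (red, right) or lower (blue, left) in 36 smaller groups, number of genes in brackets, ordered by median log2 fold change, with dotted lines at the percent over all genes (22.9 and 23.2). The SMG and UPF factors lie at 1 end and complex IV subunits at the other.

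Among the 10 largest rises over all genes with a mean of at least 5 CPM were several members of multi-copy families. All 10 measured NBPF genes, a family expanded on chromosome 1, were higher, with a median log2 fold change of 2.53 and a summed level of 229 and 211 CPM in the WT libraries and 1054 and 992 CPM in the XRN1-null libraries. NBPF20 had 7.82 and 6.58 CPM in WT against 58.5 and 54.8 CPM in XRN1-null cells (log2 fold change 2.97 ± 0.10 (SE), FDR = 2.5e-06) and NBPF10 8.33 and 8.43 CPM in WT against 67.5 and 59.0 CPM in XRN1-null cells (log2 fold change 2.91 ± 0.10 (SE), FDR = 2.5e-06). NAIP, a sensor of bacterial proteins with near copies on chromosome 5, had 10.6 and 8.53 CPM in WT against 86.9 and 83.3 CPM in XRN1-null cells (log2 fold change 3.15 ± 0.10 (SE), FDR = 2.5e-06). TYW1B, a near copy of TYW1, which modifies phenylalanine tRNA, had 2.40 and 2.19 CPM in WT against 26.2 and 25.2 CPM in XRN1-null cells (log2 fold change 3.48 ± 0.11 (SE), FDR = 2.5e-06). LRRC37B, of a family of leucine-rich repeat proteins, had 7.48 and 6.67 CPM in WT against 52.4 and 49.7 CPM in XRN1-null cells (log2 fold change 2.85 ± 0.09 (SE), FDR = 2.5e-06). The others were COL12A1 and XRN1, described elsewhere, and NBPF25P, CCT6P3 and SMA4, with log2 fold changes of 2.89, 2.84 and 2.94. Genes annotated as pseudogenes had 44 higher and 5 lower of 79 (median 0.65), while protein-coding genes had a median of -0.02. Reads of such copies can be assigned to the wrong member, so which copy changed is uncertain.

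The other large falls, after LAMA1 and SNAI2, included several secreted or surface proteins. SPON1, a matrix protein of the floor plate, had 25.6 and 26.2 CPM in WT against 5.39 and 5.16 CPM in XRN1-null cells (log2 fold change -2.30 ± 0.09 (SE), FDR = 4.1e-06) and HTRA1, a secreted protease, 22.5 and 20.7 CPM in WT against 4.15 and 5.45 CPM in XRN1-null cells (log2 fold change -2.17 ± 0.14 (SE), FDR = 1.7e-05). BASP1, a membrane protein of growing axons, had 9.01 and 8.04 CPM in WT against 1.64 and 2.41 CPM in XRN1-null cells (log2 fold change -2.07 ± 0.19 (SE), FDR = 7.5e-05). KCNG1, a potassium channel subunit, had 31.9 and 34.3 CPM in WT against 9.09 and 8.12 CPM in XRN1-null cells (log2 fold change -1.95 ± 0.10 (SE), FDR = 7.4e-06), and NPTXR, the neuronal pentraxin receptor, 19.7 and 20.2 CPM in WT against 4.73 and 5.93 CPM in XRN1-null cells (log2 fold change -1.90 ± 0.12 (SE), FDR = 1.9e-05). CTXN1, cortexin of the brain, had 32.0 and 33.7 CPM in WT against 8.67 and 8.19 CPM in XRN1-null cells (log2 fold change -1.96 ± 0.09 (SE), FDR = 5.3e-06). With the width offset each of these 6 genes kept an FDR below the threshold.

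The remaining lists are given more briefly. Collagens, laminins and matrix glycoproteins had 11 higher and 15 lower of 41. Its genes moved in both directions, COL12A1 being at 1.61 and 2.01 CPM in WT against 29.2 and 28.3 CPM in XRN1-null cells (log2 fold change 3.99 ± 0.12 (SE), FDR = 2.5e-06) and LAMA1 at 35.5 and 33.4 CPM in WT against 0.317 and 0.462 CPM in XRN1-null cells (log2 fold change -6.45 ± 0.16 (SE), FDR = 1.9e-06). The first is a collagen of fibril surfaces and the second a laminin chain of basement membranes. Enzymes that process the matrix had 7 higher and 6 lower of 28, among them LOXL1, which crosslinks elastin, at 11.1 and 11.1 CPM in WT against 4.68 and 3.80 CPM in XRN1-null cells (log2 fold change -1.39 ± 0.13 (SE), FDR = 9.4e-05). Integrins and focal adhesion genes had 6 and 3 of 29, and ITGA3, a laminin receptor chain, had 11.3 and 11.02 CPM in WT against 27.8 and 29.5 CPM in XRN1-null cells (log2 fold change 1.36 ± 0.09 (SE), FDR = 1.7e-05). G protein-coupled receptors had 7 of 26 lower and 1 higher, the higher one being GPR50, a relative of the melatonin receptors, at 9.26 and 9.74 CPM in WT against 41.2 and 37.8 CPM in XRN1-null cells (log2 fold change 2.06 ± 0.09 (SE), FDR = 4.9e-06). Synaptic and neuronal genes had 7 lower and 2 higher of 26, with GAD1, which makes the transmitter GABA, higher at 8.33 and 7.34 CPM in WT against 23.5 and 22.9 CPM in XRN1-null cells (log2 fold change 1.56 ± 0.10 (SE), FDR = 1.8e-05). RAB GTPases had 8 lower and 2 higher of 42, and RAB39A had 12.2 and 11.97 CPM in WT against 3.67 and 3.03 CPM in XRN1-null cells (log2 fold change -1.85 ± 0.13 (SE), FDR = 2.7e-05). The medians were -0.20 for G protein-coupled receptors, -0.15 for neuronal genes, -0.13 for RAB genes and 0.15 for integrins. With the width offset they were -0.32, -0.28, -0.15 and 0.0056, and 2 integrin and focal adhesion genes were higher and 4 lower. When 1 library was dropped, lower counts ran for matrix glycoproteins from 8 (XRN1-null 1) to 17 (WT 1), for receptors from 6 (XRN1-null 2) to 12 (WT 2), for neuronal genes from 6 (XRN1-null 1) to 11 (WT 1), for RAB genes from 5 (XRN1-null 2) to 13 (WT 2) and higher counts for integrins from 4 (XRN1-null 2) to 12 (WT 1) and for matrix enzymes from 4 (XRN1-null 1) to 10 (WT 1).

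Nuclear pore proteins and karyopherins had 18 higher and 6 lower of 60, and 9 and 10 with the width offset. Their highest member XPO4, an exporter, had 74.6 and 64.9 CPM in WT against 148 and 138 CPM in XRN1-null cells (log2 fold change 1.03 ± 0.08 (SE), FDR = 4.7e-05), and with the offset 0.60. Cullin, F-box and BTB ubiquitin ligases had 27 higher and 23 lower of 123, and CUL7 had 22.6 and 22.7 CPM in WT against 59.4 and 65.9 CPM in XRN1-null cells (log2 fold change 1.47 ± 0.08 (SE), FDR = 9.4e-06). Genes of cilia had 19 and 11 of 65, and Hedgehog genes, which signal through cilia, 1 and 1 of 8. Signalling by TNF and NF-kappaB had 11 higher and 9 lower of 38, and its kinase IKBKB had 35.2 and 36.5 CPM in WT against 71.6 and 75.3 CPM in XRN1-null cells (log2 fold change 1.03 ± 0.07 (SE), FDR = 1.8e-05). Intermediate filament genes had 3 and 2 of 12, led by LMNA, of the nuclear lamina, at 33.0 and 55.0 CPM in WT against 95.4 and 103 CPM in XRN1-null cells (log2 fold change 1.17 ± 0.20 (SE), FDR = 0.0014). Higher counts with 1 library left out ran for the pore from 11 (XRN1-null 1) to 35 (WT 2), for ubiquitin ligases from 14 (XRN1-null 1) to 44 (WT 2), for TNF genes from 6 (XRN1-null 2) to 15 (WT 2) and for filament genes from 1 (XRN1-null 1) to 7 (WT 2). The count of lower Hedgehog genes ran from 0 (XRN1-null 1) to 2 (WT 2).

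Hypoxia-induced genes had 7 higher and 3 lower of 20 (median 0.01), immediate-early genes 3 and 7 of 26 (median -0.07), and cytosolic heat-shock proteins and chaperonin 4 and 5 of 37 (median -0.04). JUND, an AP-1 factor, had 53.8 and 54.0 CPM in WT against 29.9 and 29.8 CPM in XRN1-null cells (log2 fold change -0.85 ± 0.06 (SE), FDR = 3.3e-05), and PFKFB4, which raises glycolytic flux, had 11.2 and 11.5 CPM in WT against 27.3 and 25.1 CPM in XRN1-null cells (log2 fold change 1.21 ± 0.09 (SE), FDR = 3.1e-05). Cytosolic tRNA synthetases had 3 higher and 1 lower of 20, and mitochondrial ones 4 and 4 of 18. Both valine enzymes were higher, VARS at 142 and 172 CPM in WT against 284 and 283 CPM in XRN1-null cells (log2 fold change 0.85 ± 0.09 (SE), FDR = 1.7e-04) and VARS2 at 54.8 and 53.6 CPM in WT against 111 and 112 CPM in XRN1-null cells (log2 fold change 1.04 ± 0.06 (SE), FDR = 1.5e-05). Lower counts with 1 library left out ran for heat-shock genes from 2 (XRN1-null 1) to 19 (WT 1) and for immediate-early genes from 1 (XRN1-null 1) to 10 (WT 1), and for mitochondrial synthetases from 1 (XRN1-null 1) to 6 (WT 1). The higher count of cytosolic synthetases ran from 2 (XRN1-null 1) to 13 (WT 2).

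A further 18 genes chosen by rule as the largest rise or fall of their list lost the call when 1 library was left out. Among metabolic genes KARS, the lysyl-tRNA synthetase, had a log2 fold change of -0.39 (FDR = 0.03 without XRN1-null 1 and FDR = 0.033 without XRN1-null 2). IDH2, a mitochondrial isocitrate dehydrogenase, had a log2 fold change of -0.43 (FDR = 0.018 without XRN1-null 1 and FDR = 0.0081 without XRN1-null 2). PEX2, which serves import into peroxisomes, had a log2 fold change of -0.48 (FDR = 0.011 without XRN1-null 1 and FDR = 0.0074 without XRN1-null 2), and HACD1, of fatty acid elongation, a log2 fold change of -0.67 (FDR = 0.0055 without XRN1-null 2). The glucose transporters had opposite signs. SLC2A1 had a log2 fold change of -0.48 (FDR = 0.015 without XRN1-null 1 and FDR = 0.014 without XRN1-null 2), and SLC2A3 a log2 fold change of 0.55 (FDR = 0.023 without XRN1-null 2). In protein turnover UBE2Z had a log2 fold change of 0.33 (FDR = 0.042 without XRN1-null 1 and FDR = 0.053 without XRN1-null 2). The deubiquitinase USP10 had a log2 fold change of -0.52 (FDR = 0.00501 without XRN1-null 1 and FDR = 0.0052 without XRN1-null 2). PSME4, a proteasome activator, had a log2 fold change of 0.41 (FDR = 0.029 without XRN1-null 1 and FDR = 0.0089 without XRN1-null 2).

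Of the 18 genes, CTCF works with cohesin in folding chromatin and had a log2 fold change of -0.49 (FDR = 0.012 without XRN1-null 2). The histone gene HIST3H2A had a log2 fold change of -0.61 (FDR = 0.016 without XRN1-null 1). GAS1, a Hedgehog co-receptor, had a log2 fold change of -0.30 (FDR = 0.062 without XRN1-null 1 and FDR = 0.048 without XRN1-null 2). MOB1A of the Hippo pathway had a log2 fold change of -0.56 (FDR = 0.006 without XRN1-null 1 and FDR = 0.0067 without XRN1-null 2). CTGF, which stood in the immediate-early list and is also a YAP target, had a log2 fold change of 0.68 (FDR = 0.0066 without WT 2 and FDR = 0.013 without XRN1-null 1 and FDR = 0.025 without XRN1-null 2). Filament genes went both ways. NEFM had a log2 fold change of -0.59 (FDR = 0.016 without XRN1-null 1 and FDR = 0.0067 without XRN1-null 2), and KRT18 a log2 fold change of 0.49 (FDR = 0.0065 without XRN1-null 1 and FDR = 0.0073 without XRN1-null 2). The protocadherin PCDHGA11 had a log2 fold change of -0.58 (FDR = 0.012 without XRN1-null 1 and FDR = 0.0073 without XRN1-null 2). RAB5A, of early endosomes, had a log2 fold change of 0.41 (FDR = 0.014 without XRN1-null 1 and FDR = 0.012 without XRN1-null 2). With the width offset 6 of the 18 missed the threshold too, namely CTGF, HACD1, HIST3H2A, PSME4, SLC2A3 and UBE2Z.

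Exons of further genes chosen by rule overlap another annotated gene. On the same strand these included PAM16 (with the read-through gene CORO7-PAM16), PFKFB4 (UCN2), PCDHGA11 (other protocadherins of its cluster) and NBPF10 (NOTCH2NL genes). EIF4E (TBCAP3), CLK4 (RN7SKP70) and SNHG19 (SNORD60) also had such overlaps. Annotated genes not named here overlap RNPS1, KRT18, ACTA2, ALDOA, AJUBA, IDS, IRF9, CUL7, PSMB10 and VARS2 on that strand. On the other strand they included EIF5A (GPS2), COPA (NCSTN), BRD7 (ADCY7), CCND1 (LTO1), DIS3 (BORA), NIP7 (COG8), PRPF39 (FKBP3), STAG1 (PCCB), GINS2 (GSE1) and ACTA2 (FAS). Reads from such shared stretches could not be assigned to 1 gene with certainty, and their part in the values was not tested.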

How the data were processed

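Total RNA of WT and XRN1-null HEK293T cells was made into TruSeq libraries (by the study's account of polyadenylated RNA), 2 biological replicates per genotype, harvested 24 h after plating. Per the labels and the methods, the authors removed ribosomal reads with Bowtie2, mapped the rest to hg19 with TopHat2 and counted reads per gene with QuasR, and they deposited raw counts of 10105 genes with a width column. Per the methods the authors had kept genes with an FPKM (reads scaled to gene length and library size) above 2; the gene models behind the widths are not given in the sources used here. The kit does not keep strand, so overlapping genes on opposite strands cannot be told apart. The 4 ribosome profiling libraries were not used here.

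Counts were tested as deposited with edgeR 4.0.16 in R 4.3.3 (trimmed mean normalisation, quasi-likelihood test of genotype over the 4 libraries, Benjamini-Hochberg adjustment over 10105 genes, threshold 0.005). For the width offset, each library's deviation of log2 CPM (0.5 added) from the mean of the 4 was smoothed on log2 width by loess (span 0.3) and entered the same model. The script was tested on simulated counts. Alternatives were DESeq2 1.42.0 and its size factors, library totals, a replicate block, a minimum of 10 counts, other thresholds and each library left out; a lone library was then assumed to vary like the other genotype. P-values rest on 2 cultures a genotype, and depth covers counting error only.

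The functional lists were chosen with earlier results of these data known, and 14 of them were trimmed of 50 genes that did not belong, which moved no median by more than 0.107. The rule for named genes took XRN1, the 10 largest rises and falls among called genes with a mean of at least 5 CPM and the same direction in all 4 pairs of libraries, and the largest rise and fall of each list by the same criteria. Named after their values were seen were ALG12, ATF6, BBC3, CALR, CCNB2, CLK1, CRELD2, E2F4, E2F8, EEF1A1, EEF2, EIF2A, EIF2AK3, ERN1, ERO1B, ESPL1, FTL, GAS5, GPX4, HOXB5, HOXD9, HSPA5, IFIH1, IFNAR2, LRP5, MAGOHB, MDM2, NOTCH1, NQO1, PATL1, PDIA4, PDIA6, PHLDA3, POLH, PSMB9, RPL3, RPLP1, RPS12, SERP1, SMC4, STAT2, UPF1 and UPF2, as well as the smaller groups. Some genes chosen by the rule, among them 1 that lost its call without XRN1-null replicate 2, are not reported here. GENCODE 44 on GRCh37 gave gene positions for 99.2% of the genes. Sequences were from RefSeq on GRCh38.p14, on the strand of each gene.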

Additional observations from a re-analysis of the deposited data

How the results depend on the processing

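The count of lower genes depended on which library was left out. With 1 library left out, 1632 (without XRN1-null replicate 1) to 3410 (without WT replicate 2) genes were higher and 1097 (without XRN1-null replicate 2) to 3389 (without WT replicate 2) lower, and there were 1113 lower genes without XRN1-null replicate 1 and 3114 without WT replicate 1. The rho with width ran from 0.336 to 0.363. A log2 fold change of at least 1 was required in addition in 1 alternative and left 531 higher and 171 lower genes, by its construction. DESeq2, its size factors, library totals, a minimum of 10 counts and an FDR of 0.05 kept both counts within 1.5 times of the reported ones, with 2313 to 3319 higher and 1924 to 3460 lower genes. Library totals shifted the median log2 fold change of all genes from -0.01 to 0.04. Replicate numbers are shared between genotypes, and deviations of same-numbered libraries had a correlation of 0.190; with 2 pairs the numbers do not show a pairing, and a fit with the replicate block gave 2858 higher and 2805 lower genes. Of 152 genes chosen by rule, 0 changed direction with other size factors, library totals, the replicate block, the width offset or a library left out. The threshold was missed by 1 with DESeq2 size factors, by 3 with library totals, by 6 with the width offset, by 1 without WT replicate 2, by 15 without XRN1-null replicate 1, by 18 without XRN1-null replicate 2 and by 0 in the other 2 of these fits. The cause of these losses was not tested. The lists before trimming gave a moved median for 5 of 71. Groups of 2 libraries limit the precision of every SD given.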
